A study of Mus musculus with 4 samples.

Results

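Pericytes are the mural cells that wrap capillaries and the smallest venules inside the vascular basement membrane. In these data they were the 538 of 13805 kept barcodes that carried mural transcripts with few transcripts of the neighbouring vessel and muscle cells. A kept barcode had at least 200 genes, at least 2000 unique molecular identifiers (UMIs, each counting 1 captured mRNA molecule) and at most 10% mitochondrial UMIs. A pericyte then had at least 8 UMIs summed over Pdgfrb, Notch3, Abcc9 and Rgs5, at most 4 over the endothelial genes Kdr, Flt1, Plvap and Cdh5, at most 9 over the smooth muscle genes Myh11 and Actg2, and at most 1 of the macrophage gene Csf1r. The cells were chosen by the measured values of these 11 genes, so those values describe the choice and support nothing.

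The series profiled mouse colon at steady state by droplet 3′ single-cell RNA sequencing after magnetic enrichment for CD11b, an integrin of myeloid cells. One library came from the lamina propria (LP) and 1 from the solitary isolated lymphoid tissues (SILT) of each genotype. The wild-type mice were Csf2+/+:CX3CR1-GFP/+:CCR2-RFP/+ and the knockouts Csf2-/-:CX3CR1-GFP/+:CCR2-RFP/+, so both genotypes carried 1 GFP allele at CX3CR1 and 1 RFP allele at CCR2, and the knockout carried no working Csf2, the gene for GM-CSF. Whether a library pooled mice was not given in the sources used here, and neither were age and sex. With 1 library per group no difference can be tested: intervals are 95% and cover counting error only, and a gene was counted as higher or lower from a 1.5-fold difference in CPM, its counts per 1000000 UMIs of the summed pericytes.

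Pericytes are recruited to vessels by endothelial PDGF-B acting on the receptor PDGFRB, and their identity is maintained by Notch signals that they receive through NOTCH3. They hold ATP-sensitive potassium channels made of the pore KIR6.1 (Kcnj8) and the sulphonylurea receptor SUR2 (Abcc9), which set the membrane potential, and RGS5, which shortens signalling by G protein-coupled receptors. With the endothelium they lay down collagen IV and laminin, and in the gut they sit in the capillary nets under the epithelium.

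Kcnj8 and Abcc9 are neighbours on chromosome 6 of the mouse genome (GRCm38), both on the minus strand: Kcnj8 spans chr6:142564837-142571614 and Abcc9 chr6:142587862-142702315, with 16247 bases between them. Rgs5 lies on the plus strand at chr1:169655501-169695813. The bases just upstream of the annotated starts of these 3 protein-coding genes are printed from RefSeq (GRCm38.p6), 5′ to 3′ on the strand of the gene. Rgs5 and Abcc9 are rule genes, so their level in these cells was set by the choice, and only Kcnj8 lies outside the rule. Capitals mark the words TGGGAA (the core bound by RBPJ, the Notch effector) and GGGCGG (a GC box), searched on both strands.
Rgs5, chr1:169655251-169655500, plus strand: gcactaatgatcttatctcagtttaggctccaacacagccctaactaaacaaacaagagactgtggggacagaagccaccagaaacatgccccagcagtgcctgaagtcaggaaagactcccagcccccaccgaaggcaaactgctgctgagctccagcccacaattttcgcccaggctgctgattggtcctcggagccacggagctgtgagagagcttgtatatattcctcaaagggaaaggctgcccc
Kcnj8, chr6:142571615-142571864, minus strand: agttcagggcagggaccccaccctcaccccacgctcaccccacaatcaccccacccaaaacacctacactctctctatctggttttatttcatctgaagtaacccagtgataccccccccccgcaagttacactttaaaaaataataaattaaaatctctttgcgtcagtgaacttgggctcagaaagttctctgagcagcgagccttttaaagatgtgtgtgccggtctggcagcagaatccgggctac
Abcc9, chr6:142702316-142702524, minus strand: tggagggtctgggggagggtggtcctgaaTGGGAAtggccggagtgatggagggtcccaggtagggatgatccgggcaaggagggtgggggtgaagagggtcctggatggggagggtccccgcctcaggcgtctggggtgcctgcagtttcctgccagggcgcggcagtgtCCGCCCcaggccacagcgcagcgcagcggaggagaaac
The Abcc9 window of 209 bases held TGGGAA beginning 180 bases before the start and, on the other strand, GGGCGG (read as CCGCCC) beginning 38 bases before it. The windows of Rgs5 and Kcnj8, 250 bases each, held neither word. Of 32817 promoter windows cut to 209 bases, 18.6% held TGGGAA and 26.5% GGGCGG; at 250 bases the shares were 21.6% and 32.7%. A match is a description of letters in a window, not a binding site.

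The pericytes numbered 207 of 3876 kept barcodes in wild-type LP (5.34%, exact binomial interval 4.65% to 6.10%), 141 of 1792 in Csf2-/- LP (7.87%, 6.66% to 9.21%), 149 of 6151 in wild-type SILT (2.42%, 2.05% to 2.84%) and 41 of 1986 in Csf2-/- SILT (2.06%, 1.49% to 2.79%). The share was higher in both LP libraries than in both SILT libraries. More barcodes passed the mural limit and failed the endothelial one: joint barcodes, with at least 8 UMIs of each set, were 15.3%, 13.1%, 8.93% and 10.6% of the kept barcodes in the same order. A joint barcode can be a pericyte and an endothelial cell in 1 droplet or other mixtures, which was not tested. Cells were selected for CD11b before loading, so none of these shares is a share of the tissue.

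**Figure D1:**
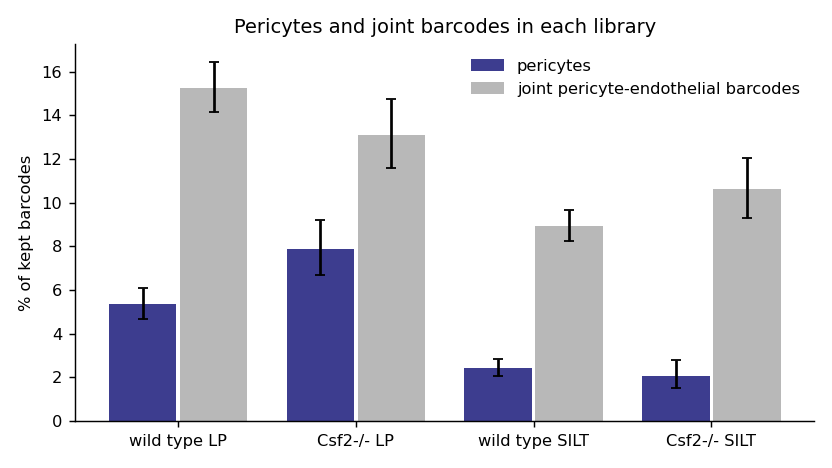
Percent of kept barcodes (y axis) that were pericytes (blue bars) or joint barcodes (grey bars) in each of the 4 libraries; error bars are exact 95% binomial intervals. Pericytes were 5.34% and 7.87% in the LP libraries and 2.42% and 2.06% in the SILT libraries, below the joint barcodes in each library.

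Csf2 gave 0 UMIs in the pericytes of every library, which allows up to 2.14, 3.68, 4.59 and 16.5 CPM in wild-type LP, Csf2-/- LP, wild-type SILT and Csf2-/- SILT; over all kept barcodes it gave 2, 0, 23 and 0 UMIs. Itgam, which encodes the CD11b chain, was at 6.41, 1.23, 1.53 and 0 CPM in pericytes (the last again allowing up to 16.5 CPM) against 230 to 415 CPM in macrophages (barcodes with Csf1r and complement C1q transcripts), so the selected marker was near 0 in these cells. The pericytes had a median of 6746, 5584, 4064 and 4238 UMIs, against 9685.5 to 12192 in macrophages, and median mitochondrial shares of 3.49%, 4.0%, 2.28% and 2.70%. Their summed UMIs were 1404895, 814283, 653287 and 181525. Libraries shared 0 to 8 of the kept barcodes with each other and none of the pericytes. Scrublet called 52, 7, 136 and 10 doublets, none of them a pericyte, and none was removed.

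Wild-type SILT stood apart from the other libraries. Its pericytes had a median of 33 UMIs over the 4 mural rule genes, against 92, 80 and 54 in wild-type LP, Csf2-/- LP and Csf2-/- SILT, and 17 of its members had 8 to 12 such UMIs, against 6, 5 and 0. Transcripts of several other cell types were more abundant in them. The summed plasma cell markers stood at 2223 CPM against 440, 448 and 1300, and the macrophage markers at 928 CPM against 372, 243 and 297. The blood endothelial markers stood at 1183 CPM against 653, 543 and 937, and the fibroblast markers at 5100 CPM against 4726, 4498 and 4187. Others were lowest there: smooth muscle markers at 1052 CPM against 1244, 1314 and 1102, and erythroid markers at 18.4 against 32.7, 38.1 and 33.1. Enteric neuron markers were lowest there too. The mast cell and mesothelial markers were at 0 in all 4, within the limits given for Csf2. The part of these transcripts in any difference below was not tested. Both comparisons that use wild-type SILT are therefore read beside the comparison within LP and the comparison within the knockout, which do not use it, and beside typical members (185, 134, 132 and 38 cells, with at least 3 UMIs over Kcnj8, Cox4i2, Higd1b and Ndufa4l2 and at most 30 over Pdgfra, Dcn, Lum and Dpt), a limit chosen after seeing the data.

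At the edge of the rule, members with 8 to 12 mural UMIs had less of the other pericyte genes. In wild-type LP the 6 such cells had Kcnj8 at 19.2 CPM and the fibroblast matrix gene Dcn at 5696 CPM, against 745 and 971 CPM in the 201 cells above 12. Just outside, the 8 barcodes with 5 to 7 mural UMIs had Kcnj8 at 55.9 and Dcn at 1788 CPM. These edge values rest on few UMIs, as the 6 cells summed to 51969. The drop was milder elsewhere. In wild-type SILT, 17 edge members had Kcnj8 at 199 CPM against 681 above 12 mural UMIs, and Dcn at 4133 against 1833. In Csf2-/- LP, 5 edge members had Kcnj8 at 149 against 676 CPM and Dcn at 2085 against 1138.

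The label has 6 markers, of which the rule used Rgs5, Pdgfrb, Notch3 and Abcc9, so it was checked against Kcnj8 and Cox4i2. As a description of the choice, Rgs5 stood at 10805, 11476, 6233 and 10715 CPM in the pericytes of wild-type LP, Csf2-/- LP, wild-type SILT and Csf2-/- SILT and at 15.8 to 21.2 CPM in endothelial cells (at least 8 endothelial UMIs, at most 2 mural, a limit that itself includes Rgs5). Kcnj8, which the rule did not use, stood at 718 (675 to 764), 663 (608 to 722), 621 (562 to 685) and 870 (740 to 1017) CPM, against 0.438 to 2.54 in endothelial cells, 6.07 to 41.0 in fibroblasts, 43.9 to 165 in smooth muscle cells (81, 9, 98 and 6 barcodes) and at most 1.36 in macrophages. Cox4i2 stood at 615, 1040, 1073 and 1129 CPM, against 1.03 to 3.07 in endothelial cells. Against smooth muscle cells and fibroblasts as well, it was less than 3.6-fold above the highest of them in the least distinct library. Both markers outside the rule were present in the pericytes of every library, and the label was kept. It rests on Kcnj8, at least 9.17-fold above the endothelial, smooth muscle and fibroblast cells in the libraries with at least 50 pericytes. For Cox4i2 only an upper bound is given against smooth muscle cells and fibroblasts, so here it sets pericytes apart from endothelial cells alone. After each cell was thinned to 2000 UMIs, Kcnj8 was detected in 66.7%, 65.2%, 60.4% and 61.0% of pericytes and Cox4i2 in 62.8%, 77.3%, 79.2% and 75.6%; without thinning the shares were 85.0%, 86.5%, 74.5% and 75.6% for Kcnj8 and 88.9%, 94.3%, 87.9% and 92.7% for Cox4i2. Macrophages thinned alike, with the median depths given above, had Kcnj8 in at most 0.399% and Cox4i2 in at most 0.619% of cells.

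Among 2889 genes ranked in the 3 libraries with at least 50 pericytes, Tmem273 stood farthest above the endothelial, smooth muscle and fibroblast cells, where its highest level was 2.02 CPM in wild-type LP and 2.31 CPM in wild-type SILT (2 UMIs in each, in smooth muscle cells) and where Csf2-/- LP had no UMI; no fold is given on so few UMIs. The transcript of this membrane protein was at 149, 120, 136 and 149 CPM in pericytes, but macrophages also held 21.6 to 28.2 CPM. Plxdc1, a transmembrane plexin-domain protein, exceeded the next of those gates by at least 12.9-fold, and the death receptor gene Tnfrsf21 by 9.75-fold, with 26.4 to 38.2 CPM in macrophages. Kcnj8 came next at 9.17-fold. Among adhesion genes, N-cadherin (Cdh2), which joins pericytes to endothelium, was at 290, 242, 243 and 242 CPM and at least 7.81-fold above the next gate, and protocadherin 19 (Pcdh19) at 577, 607, 277 and 496 CPM and at least 7.20-fold. The remaining genes of the 15 were Mapt (tau, 8.95-fold), the rule gene Abcc9 (8.13-fold), the PACAP receptor Adcyap1r1 (7.77-fold), Nt5dc2 (7.01-fold), the ADP-ribosyltransferase gene Art3 (6.78-fold), the NG2 proteoglycan gene Cspg4 (6.52-fold), the Notch target Heyl (6.30-fold), aminopeptidase A (Enpep, 5.84-fold) and B130024G19Rik (5.51-fold). These ratios describe cells that were gated apart and were not tested. They rest on few UMIs in the small smooth muscle and fibroblast gates of Csf2-/- LP (9 and 14 cells), where the next gate for Tnfrsf21 was at 20.7 CPM. The lowest Plxdc1 ratio rests on few UMIs as well, with the next gate at 4.62 CPM in wild-type SILT.

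**Figure D2:**
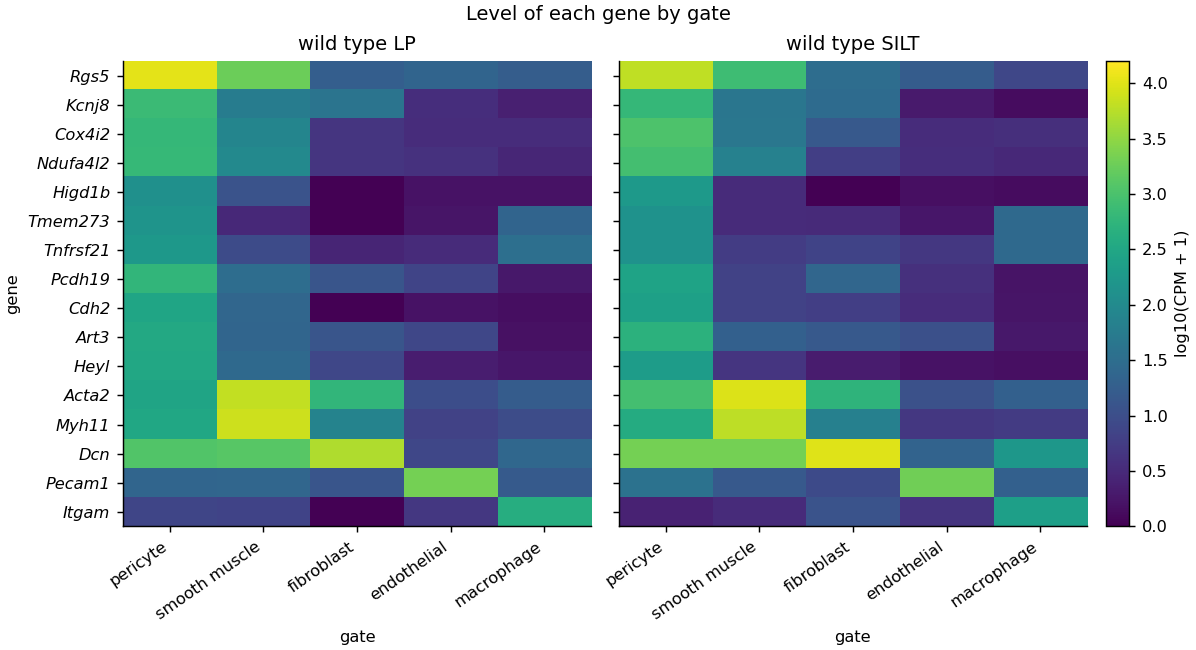
Level of 16 genes (rows) as log10 of CPM plus 1 (colour) in the pericytes, smooth muscle, fibroblast, endothelial and macrophage gates (columns) of wild-type LP and wild-type SILT. Kcnj8, Cox4i2 and Cdh2 are brightest in pericytes, Acta2 and Myh11 in smooth muscle cells, Dcn in fibroblasts and Pecam1 in endothelial cells; Itgam is bright in macrophages only, and the colours of 1 row compare gates, not genes.

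Subunits of the respiratory chain showed an isoform pattern. Cox4i2 and Ndufa4l2 encode the alternative forms of cytochrome oxidase subunit 4 and of NDUFA4, both known from cells that sense or adapt to low oxygen, and Higd1b belongs to the hypoxia-inducible domain family. Ndufa4l2 stood at 661, 975, 865 and 1069 CPM in the pericytes of wild-type LP, Csf2-/- LP, wild-type SILT and Csf2-/- SILT and at 1.03 to 2.99 CPM in endothelial cells; Higd1b stood at 126, 134, 188 and 165 CPM against 0.498 to 0.876. With smooth muscle cells and fibroblasts included, Ndufa4l2 was less than 3.6-fold above the highest of them in its least distinct library. Higd1b was at least 4.32-fold above them in the libraries with at least 50 pericytes. The common form Ndufa4 went the other way, at 27.8, 29.5, 138 and 16.5 CPM in pericytes against 409, 479, 560 and 530 in endothelial cells. Its higher level in wild-type SILT was 75.3 CPM in the typical members. For subunit 4 both forms were present in pericytes: Cox4i1 was at 406, 569, 761 and 678 CPM, against 469, 566, 686 and 634 in endothelial cells. So the alternative form stood beside the common one for COX4, while the common NDUFA4 transcript was low in pericytes. Cox4i2 lies at chr2:152754173-152765037, Ndufa4l2 at chr10:127514967-127517154 and Higd1b at chr11:102835849-102838040, all on the plus strand.

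**Figure D3:**
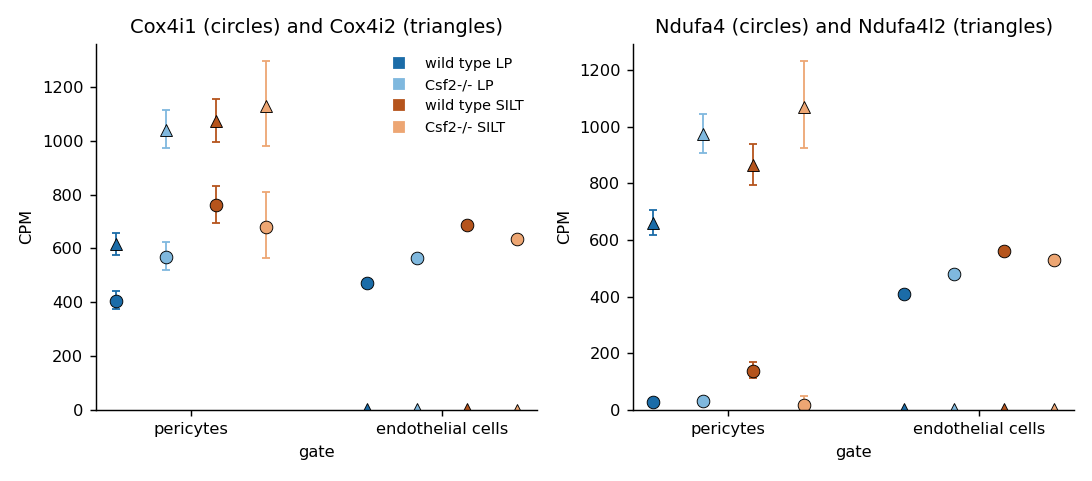
CPM (y axis, from 0) of Cox4i1 and Cox4i2 (left) and of Ndufa4 and Ndufa4l2 (right) in pericytes and endothelial cells of the 4 libraries (colours); circles are the common forms, triangles the alternative forms, and pericyte error bars are exact 95% Poisson intervals. The triangles lie near 0 in endothelial cells and at 615 to 1129 CPM in pericytes, and Ndufa4 lies at 16.5 to 138 CPM in pericytes against 409 to 560 in endothelial cells.

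The contractile genes varied from cell to cell. Acta2, the smooth muscle actin gene, stood at 285, 607, 879 and 490 CPM in the pericytes of wild-type LP, Csf2-/- LP, wild-type SILT and Csf2-/- SILT. At 2000 UMIs per cell, 75.4%, 64.5%, 63.1% and 63.4% of pericytes had no Acta2 UMI, while 2.90%, 5.67%, 10.7% and 2.44% had at least 5; the tenth of cells with most Acta2 held 67.2%, 64.5%, 68.9% and 72.1% of its UMIs. For Rgs5 the tenth of cells with most held 17.7% to 22.5%. Across cells of wild-type LP, Csf2-/- LP and wild-type SILT (207, 141 and 149 cells, which share the library), Acta2 moved with the actin-binding gene Tagln (Pearson 0.57, 0.65 and 0.74) and with the myosin light chain Myl9 (0.31, 0.50 and 0.40), and opposite to Abcc9 (-0.34, -0.37 and -0.32) and Rgs5 (-0.30, -0.23 and -0.33). Abcc9 and Rgs5 are rule genes, so a cell low in one needed others to enter, and their values describe the choice. Outside the rule, Kcnj8 was at -0.17, -0.19 and -0.30 and Cox4i2 at -0.01, 0.05 and -0.30. Ndufa4l2 was at 0.10, 0.07 and -0.12 and Higd1b at 0.03, -0.01 and -0.11. Members with high Acta2 therefore formed a tail of the counts. The rule itself limits that tail, since 48, 12, 40 and 4 barcodes with enough mural UMIs and few endothelial ones were left out for Myh11 and Actg2. Acta2 was also higher in members with 8 to 12 mural UMIs than in those above 12. The levels were 1020 against 256 CPM (wild-type LP), 3426 against 535 (Csf2-/- LP) and 2433 against 660 (wild-type SILT). Whether all members with high Acta2 are pericytes was not tested. Myh11 stood at 320, 273, 381 and 303 CPM in the pericytes against 4710 to 8129 in smooth muscle cells, whereas desmin (Des) stood at 624, 761, 435 and 562 against 149 to 589.

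Receptors through which vessels are told to constrict or relax were well represented. The endothelin receptor Ednra stood at 616, 502, 504 and 463 CPM in the pericytes of wild-type LP, Csf2-/- LP, wild-type SILT and Csf2-/- SILT, against at most 1.35 in endothelial cells. The angiotensin receptor Agtr1a was at 144, 128, 68.9 and 110 CPM and the adrenergic receptor Adra2a at 347, 316, 155 and 215 CPM. The nitric oxide receptor, guanylate cyclase, was present as both subunits: Gucy1a1 at 1202, 1011, 923 and 876 CPM and Gucy1b1 at 1048, 817, 807 and 810 CPM. Its downstream parts, the cyclic GMP phosphodiesterase Pde5a (604, 533, 412 and 496 CPM) and the cyclic GMP kinase Prkg1 (256, 198, 162 and 231 CPM), were detected as well. Ednra, Pde5a and both cyclase subunits differed by less than 1.5-fold between any libraries, whereas Adra2a and Agtr1a were lowest in wild-type SILT.

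Among ion channels and transporters, the sodium-potassium-chloride carrier Slc12a2 stood at 779, 632, 409 and 793 CPM and the calcium-activated chloride channel Ano1 at 247, 195, 161 and 297, in the same order of libraries. Endothelial cells had 50.8 to 57.6 CPM of Slc12a2 and at most 0.996 CPM of Ano1. The gap junction gene Gjc1 stood at 347, 410, 464 and 507 CPM.

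Genes of the basement membrane fell into those shared with endothelium and those that endothelium nearly lacked. Collagen IV chains Col4a1 (3149, 2449, 2099 and 3030 CPM in wild-type LP, Csf2-/- LP, wild-type SILT and Csf2-/- SILT) and Col4a2 (2019, 1583, 1085 and 1658 CPM) were shared with endothelial cells, which had 1860 to 2461 and 1019 to 1513 CPM. Laminin gamma 3 (Lamc3) was at 424, 376, 196 and 435 CPM in pericytes against at most 2.19 in endothelial cells, and laminin alpha 2 (Lama2) at 535, 294, 240 and 248 against at most 1.79. The collagen XVIII gene Col18a1, the source of endostatin, was at 675, 596, 387 and 744 CPM, against 7.93 to 16.3. Vitronectin (Vtn) was at 292, 394, 283 and 397 CPM, against at most 1.05.

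Pericytes also made factors for other cells. Il34, a ligand of the macrophage receptor CSF1R, stood at 196, 189, 201 and 380 CPM in the same order, and the eosinophil attractant Ccl11 at 342, 675, 522 and 463 CPM; endothelial cells had at most 0.797 CPM of either. Stem cell factor (Kitl) was at 327, 298, 309 and 231 CPM against 532 to 835 in endothelial cells, and Cxcl12 at 407, 349, 839 and 413 against 3000.3 to 3943. In the typical members Cxcl12 was at 353, 295, 472 and 394 CPM, so the higher level of wild-type SILT rested in part on the 17 members left out there. The vessel-destabilising ligand Angpt2 stood at 110, 95.8, 96.4 and 121 CPM, and the vessel-stabilising Angpt1 at 49.1, 33.2, 29.1 and 16.5 CPM. Csf2ra, a receptor chain for GM-CSF, gave 6.41, 1.23, 6.12 and 11 CPM, on 1 UMI in Csf2-/- LP and 2 in Csf2-/- SILT.

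In SILT, the knockout comparison asked whether pericytes of the lymphoid tissue differed without GM-CSF. Genes entered with 50 CPM or more in either library and 30 UMIs or more over both. Of 3998 such genes 33.1% were at least 1.5-fold apart, 18.8% higher in Csf2-/- SILT and 14.3% lower, and the median log2 ratio was 0.05. Under TMM scaling the median moved to -0.11, and the share of higher calls among all calls went from 56.7% to 38.5%. Pericyte identity markers outside the rule stood higher in the knockout: 6 of 18 were past the fold and 0 below it (median log2 ratio 0.42; 4 under TMM). Without the 4 identity genes that define the typical members, these were 6 of 14 over all members and 4 of 14 over the typical ones. Mcam, an adhesion molecule of mural and endothelial cells, was at 397 against 104 CPM, 3.81-fold (2.70 to 5.39), but was also higher in endothelial cells (log2 1.19). The rule genes Rgs5 and Notch3, at 1.72-fold and 2.01-fold, are given as description.

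Basement membrane genes followed, with 7 of 14 past the fold and 0 below it (median 0.59; 5 in typical members and 4 under TMM). Lamc3 was 2.22-fold higher (1.66 to 2.96), nidogen 1 (Nid1) 2.22-fold (1.53 to 3.20) and Col18a1 1.92-fold (1.55 to 2.38). In endothelial cells the same 14 genes had a median of 0.22 and in joint barcodes 0.18. Of 20 mural transcription factors 8 were higher and 1 lower (median 0.42); the orphan receptor Nr2f2 was 1.84-fold (1.58 to 2.14) and Epas1, the hypoxia-inducible factor HIF-2 alpha, 1.74-fold higher (1.44 to 2.09). Il34 was 1.90-fold higher (1.40 to 2.56), and not in joint barcodes (log2 0.07). The nuclear receptor gene Rxra was the named gene with the highest ratio, 5.04-fold (2.48 to 10.5), on 21 and 15 UMIs.

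Among genes lower in Csf2-/- SILT were early response genes: of 27, 7 were lower and 3 higher (median -0.26, against 0.26 in endothelial cells). Fos was at 1217 against 2754 CPM, 2.26-fold lower (1.97 to 2.61), and Atf3 at 16.5 against 122 CPM, on 3 UMIs in the knockout. Nr4a1, an early gene too, went the other way at 4.0-fold higher (2.30 to 6.99). Of 9 MHC genes, 6 were lower and 1 higher (median -0.78); Cd74 was at 270 against 1244 CPM, and 1 wild-type cell held 353 UMIs of it. In the typical members 3 MHC genes were lower and 2 higher (median -0.50). With the marker sums above, pericytes of wild-type SILT carried more of the transcripts of several other cell types, among them macrophages and plasma cells. The part of those transcripts in these counts was not tested.

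The lymphoid stromal counts depended on the choice of members. Over all members 7 of 12 were lower and 1 higher in Csf2-/- SILT (median -1.34). Over the typical members 6 were counted as higher and 1 as lower (median 0.63), but 0 UMIs entered these counts as 3. Ccl19, Ccl21a, Cxcl13 and Il7 had 0 UMIs in the typical members of Csf2-/- SILT and entered at 17.6 CPM. That exceeded their values in the typical members of wild-type SILT. They were thus counted as higher without a UMI, and no turn in direction can be read. In wild-type SILT the homeostatic chemokines and cytokines of lymphoid stroma sat in few cells: Ccl21a (118 CPM) in 4 cells, Cxcl13 (101 CPM) in 5, Ccl19 (67.4 CPM) in 5 and Il7 (76.5 CPM) in 3, with 51, 45, 22 and 39 UMIs in the highest cell. In the 132 typical members they were at 3.59, 3.59, 1.79 and 0 CPM, where 0 allows up to 5.38. The BMP inhibitor Grem1 (219 CPM in 7 cells) and complement C3 (257 CPM in 4 cells) were at 0 and 1.79 CPM in the typical members. These chemokines were thus near 0 in the members that had pericyte transcripts beyond the rule genes and few fibroblast transcripts.

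Within LP, the same knockout comparison found 12.4% of 3951 genes at least 1.5-fold apart: 6.25% were higher in Csf2-/- LP and 6.18% lower (median log2 ratio 0.04). Early response genes led, with 11 of 27 higher and 0 lower (median 0.24). Zfp36, which encodes an mRNA-destabilising protein, was at 621 against 203 CPM, 3.06-fold (2.64 to 3.55); Nr4a1 was at 255 against 80.4, 3.18-fold (2.51 to 4.03); and Egr1 at 1705 against 799, 2.13-fold (1.97 to 2.31). Of the same genes, 7 were higher in endothelial cells (median 0.37) and 8 in joint barcodes (median 0.42), so the difference was not limited to pericytes. Outside the list, the neutrophil attractant Cxcl1 was 3.81-fold higher (2.84 to 5.17), at 182 against 47.7 CPM, in 39 of 141 and 28 of 207 cells (27.7% and 13.5%). At 2000 UMIs per cell Cxcl1 was found in 17.0% and 4.35% of pericytes and in 3.71% and 1.36% of macrophages. The transcription factor gene Cebpb was 3.67-fold higher (2.98 to 4.55), with an endothelial log2 ratio of 1.15. Ribosomal protein genes moved too, with 16 of 83 higher and 1 lower (median 0.44), and leaving them and the mitochondrial genes out raised the share of higher calls from 50.3% to 64.0%.

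**Figure D4:**
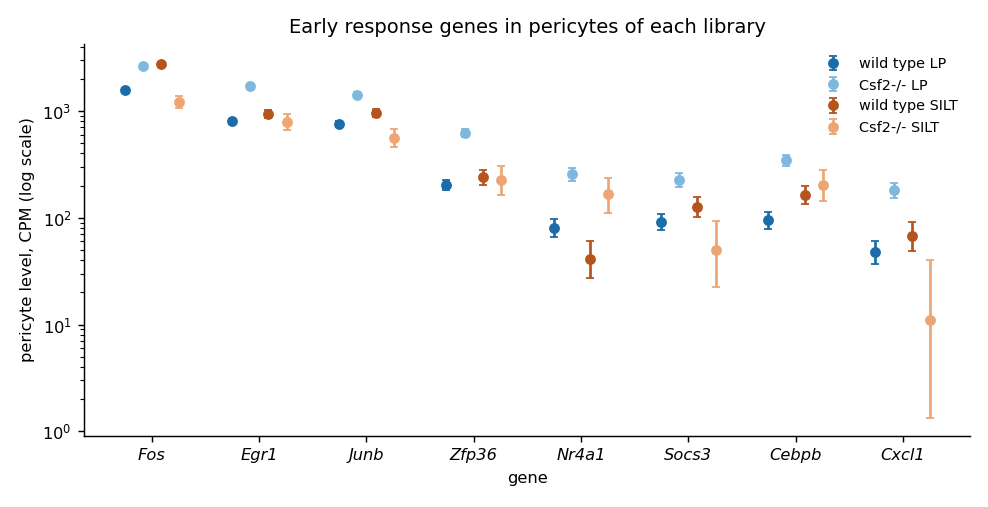
Level in pericytes (y axis, CPM on a log scale) of 8 early response and inflammatory genes (x axis) in the 4 libraries (colours); bars are exact 95% Poisson intervals. Csf2-/- LP is the highest library for Egr1, Junb, Zfp36, Nr4a1, Socs3, Cebpb and Cxcl1, and Csf2-/- SILT the lowest for Fos, Junb, Socs3 and Cxcl1.

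The pericyte functional lists had few genes past the fold in LP, where the share over all 3951 genes was also low, at 12.4%. Of 19 identity markers outside the rule 1 was higher and 0 lower (median 0.26), of 14 ion channel genes 2 were lower (median -0.03), of 12 vasoactive genes 0 in either direction (median -0.19) and of 17 basement membrane genes 2 were lower (median -0.10). Cox4i2 was 1.69-fold higher in Csf2-/- LP (1.54 to 1.86) and Ndufa4l2 1.48-fold (1.34 to 1.62), while Kcnj8 differed by 0.92-fold (0.83 to 1.03). Ccl11 was 1.97-fold higher (1.74 to 2.23), also in joint barcodes (log2 0.72), and Acta2 2.13-fold higher (1.86 to 2.44). Elastin (Eln) was 3.31-fold higher (1.98 to 5.66), on 46 and 24 UMIs. Lama2 was 1.82-fold lower (1.57 to 2.12) and also lower in joint barcodes (log2 -1.33). Linker histone Hist1h1e was 7.33-fold lower (4.47 to 12.8) and the mitochondrial leucyl-tRNA synthetase gene Lars2 3.44-fold lower (3.0 to 3.95). Both were lower in endothelial cells (log2 -1.71 and -1.47), macrophages (-1.0 and -1.96) and over all kept barcodes (-1.37 and -1.82), so neither difference was particular to pericytes.

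Between tissues in the wild type, pericytes of SILT had lower levels of vessel-support genes. Of 4106 genes, 39.9% were at least 1.5-fold apart: 19.8% were higher in SILT and 20.1% lower (median -0.03). Of 16 basement membrane genes 12 were lower and 0 higher (median -0.78, against -0.34 in endothelial cells and -0.44 in joint barcodes, where 4 were lower). Col4a2 was 1.86-fold lower (1.71 to 2.02), Lamc3 2.16-fold (1.78 to 2.64) and Lama2 2.22-fold (1.87 to 2.66). Leaving out the rule genes, of 19 identity markers 7 were lower and 1 higher (median -0.38), and of 14 ion channel genes 6 were lower and 0 higher (median -0.48); Slc12a2 was 1.91-fold lower (1.67 to 2.19). Adra2a was 2.24-fold lower (1.81 to 2.81). All of these counts use wild-type SILT, whose pericytes had the lowest mural score by the rule itself; in typical members 11 basement membrane genes were lower, and without their 4 defining genes 6 of 15 identity markers and 6 of 13 ion channel genes.

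Respiratory chain genes stood higher in wild-type SILT than in wild-type LP: 8 of 13 were higher and 0 lower (median 0.79, against 0.37 in endothelial cells). Without Cox4i2, Ndufa4l2 and Higd1b, which define the typical members, 7 of 10 were higher over all members and 7 over the typical ones. Cox4i2 was 1.74-fold higher (1.58 to 1.93), Cox4i1 1.88-fold (1.66 to 2.12) and Cox8a 1.72-fold (1.54 to 1.92). Of 83 ribosomal protein genes 41 were higher and 0 lower, and of 13 mitochondrially encoded genes 6 were lower and 0 higher. Of 15 interferon response genes 7 were higher and 0 lower (median 0.58), and of 9 MHC genes 6 were higher (median 1.13; 4 and 0.38 in typical members). Among 13 contractile genes, with those of the rule included, 3 were higher and 1 lower (median 0.25), where 19.8% of all genes tested were higher. Of these, Acta2 was 3.09-fold higher (2.71 to 3.51) and Tagln 2.91-fold (2.59 to 3.27). In typical members Acta2 and Tagln were 2.21-fold (1.90 to 2.58) and 1.89-fold (1.64 to 2.18) higher. The transcription factor Tcf21, known from mesenchymal cells, was 1.89-fold higher (1.62 to 2.20). Synapsin 3 (Syn3) was 5.71-fold lower (3.31 to 10.7), and Lars2 6.34-fold lower (5.21 to 7.79). Lars2 was lower in endothelial cells (log2 -1.82), macrophages (-1.81) and over all kept barcodes (-1.99) too, so its difference was not particular to pericytes.

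Between tissues in the knockout, few basement membrane genes or identity markers were past the fold, while ion channel genes lay on both sides. Of 4080 genes, 25.4% were at least 1.5-fold apart: 13.1% were higher in Csf2-/- SILT than in Csf2-/- LP and 12.2% lower (median 0.06; the share of higher calls went from 51.8% to 39.4% under TMM). Of 17 basement membrane genes 1 was higher and 1 lower (median 0.01), and of 19 identity markers outside the rule 0 were higher and 2 lower (median 0.11). Of 15 ion channel genes outside the rule 4 were higher and 3 lower (median 0.12), and 1 was higher under TMM; Ano1 was 1.52-fold higher (1.10 to 2.09). Col4a1 differed by 1.24-fold (1.12 to 1.36) and Lamc3 by 1.16-fold (0.89 to 1.49). Il34 was 2.01-fold higher in SILT (1.49 to 2.69). Respiratory chain genes had 3 of 11 higher and 0 lower (median 0.25), and of 13 mitochondrially encoded genes 8 were lower.

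Early response genes were lower in the lymphoid tissue here: 13 of 27 were lower in Csf2-/- SILT and 3 higher (median -0.56, against -0.09 in endothelial cells and -0.25 in joint barcodes, where 6 were lower). Junb was 2.53-fold lower (2.07 to 3.13), Zfp36 2.75-fold (2.0 to 3.88), Egr1 2.16-fold (1.82 to 2.59) and Socs3, the feedback inhibitor of cytokine signalling, 4.56-fold (2.35 to 10.1). Cxcl1 was at 11 against 182 CPM, 16.5-fold lower (4.49 to 137), with 2 UMIs in 1 of 41 cells. Among the 8 highest-ranked genes, Fxyd2 had 29 of its 33 UMIs in 1 Csf2-/- SILT cell, Gas1 24 of 29 and Olfml2a 24 of 46, whereas Polr2d, an RNA polymerase II subunit gene 4.25-fold higher (2.1 to 8.55), had its 18 UMIs in 14 cells. The comparisons share libraries, so their values are set side by side and not correlated.

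**Figure D5:**
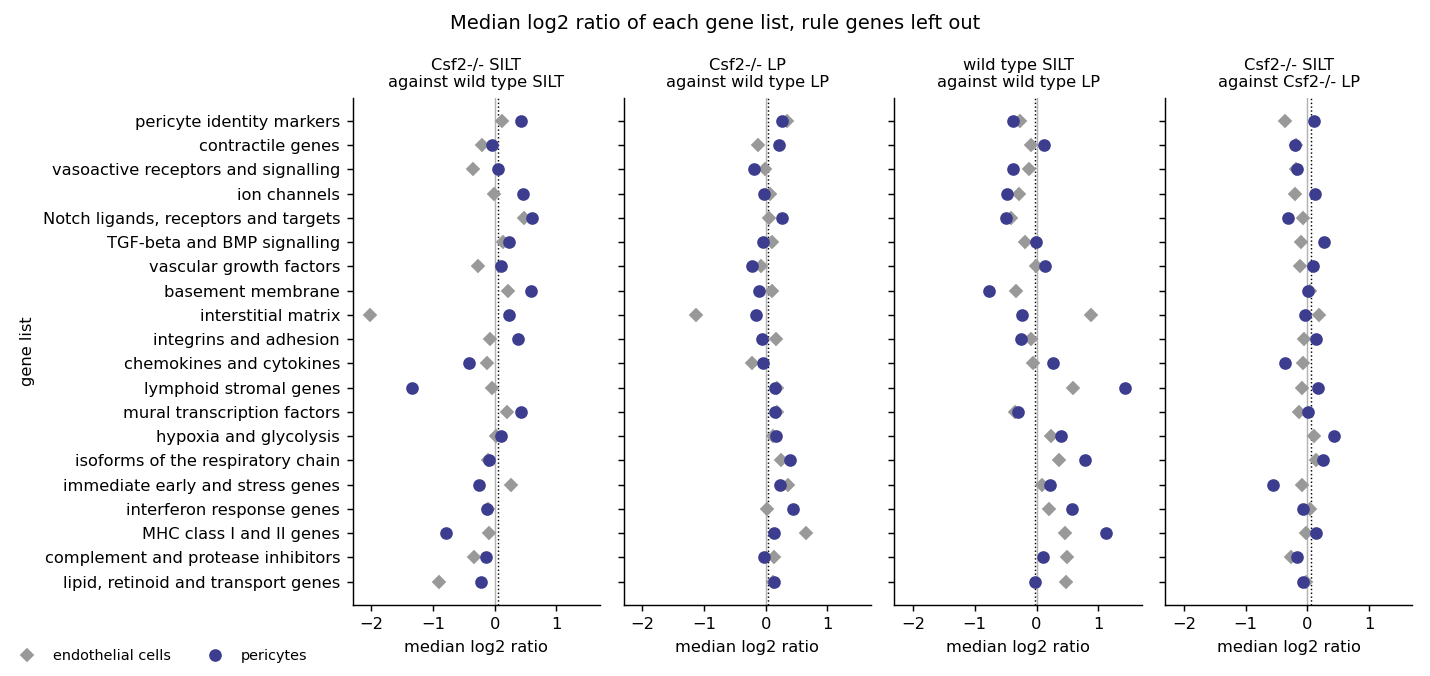
Median log2 ratio (x axis) of 20 gene lists (rows, with the rule genes left out) in each of the 4 comparisons (panels) for pericytes (blue circles) and for the same genes in endothelial cells (grey diamonds); the dotted line is the median of all genes in pericytes. In wild-type SILT against wild-type LP, basement membrane lies at -0.78 and respiratory chain isoforms at 0.79; in Csf2-/- SILT against Csf2-/- LP these lie at 0.01 and 0.25 and the immediate early genes at -0.56.

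Proliferating cell nuclear antigen (Pcna) was at 64.8, 94.6, 49.0 and 82.6 CPM in wild-type LP, Csf2-/- LP, wild-type SILT and Csf2-/- SILT against 74.3 to 118 in endothelial cells. The fibroblast receptor Pdgfra was at 53.4, 0, 6.12 and 0 CPM (0 allows up to 3.68 and 16.5), and 69 of its 75 UMIs in wild-type LP came from 1 cell. The PDGF ligand gene Pdgfa was at 169, 244, 199 and 248 CPM, and Bmp5 at 133, 89.6, 84.2 and 105 CPM, against at most 3.89 in endothelial cells. The globin Cygb was at 632, 711, 507 and 848 CPM, against 3.08 to 5.78, and the amino acid carrier Slc38a11 at 76.2, 111, 75 and 105 CPM.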

How the data were processed

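Per the labels' protocols the libraries were made with the 10x 3′ v2 kit; the submitters' processing notes name Cell Ranger 2.1.1 and mm10, whereas the file headers name cellranger 6.0.0, and which made the matrices is not known here. The authors deposited raw UMI counts for 32285 features in 5128, 2158, 8041 and 2578 barcodes (wild-type LP, Csf2-/- LP, wild-type SILT, Csf2-/- SILT), with 50017502, 19225644, 67656927 and 21225800 UMIs. From these counts the pericytes of each library were summed and scaled to CPM (Python 3.11.15, numpy 2.4.6, pandas 2.3.3, scipy 1.17.1). Intervals are exact Poisson (levels), Clopper-Pearson (shares) and conditional binomial (ratios). The ratio intervals were run on simulated Poisson counts, the model they assume, which leaves out spread between cells. A count of 0 allows up to 3 counts. Named genes were the 15 most above the other gates and, per comparison, the 8 highest and 8 lowest ratios, leaving out sex-linked, immunoglobulin, mitochondrial, ribosomal, unnamed and other cell types' marker genes, plus up to 4 genes per list; further list genes and Pcna, Cygb, Slc38a11, Pdgfa, Bmp5 and Pdgfra were named after their values were seen. TMM factors came from edgeR 4.0.16 in R 4.3.3; edgeR ran no test. Doublets were scored with scanpy 1.11.5. Alternatives changed the rule, depth, scaling and filters. List counts without the rule genes were added after seeing the data. The members, lists and comparisons were chosen with earlier results of these data known. Sequences are RefSeq's and gene positions GENCODE's, both on GRCm38; 3 of the 6 genes looked up had a promoter entry.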

Additional observations from a re-analysis of the deposited data

Results flagged for a closer look

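For 8 genes with printed levels, the knockout pericytes stood on opposite sides of the wild type in the 2 tissues: lower in SILT and higher in LP, each by at least 1.5-fold with a counting interval clear of 1. Over the 3511 genes tested in both comparisons, 12 went that way and 8 the other way, higher in SILT and lower in LP. The log2 difference between the tissues (SILT minus LP) of the knockout to wild-type ratio was -4.54 for Cxcl1, -2.66 for Socs3, -2.14 for H2-Eb1, -2.09 for Fbln1, -2.03 for Tagln, -1.94 for Fos, -1.93 for Acta2 and -1.68 for Junb. With 1 library per group the difference was not tested. In the typical members Cxcl1, Fos, Junb and Tagln were still past the fold in both tissues with intervals clear of 1. There, in SILT, Acta2 was at 476 against 603 CPM, 1.27-fold lower (0.99 to 1.63), H2-Eb1 at 99.9 against 109, 1.09-fold (0.63 to 2.0), and Socs3 at 52.9 against 95 CPM, 1.80-fold (0.88 to 4.14). For Fbln1 the ratio in the typical members pointed the other way in both tissues, with intervals that include 1. In SILT it was at 35.3 against 17.9 CPM on 6 and 10 UMIs, 1.97-fold (0.59 to 5.97). In LP it was at 14 against 22 CPM on 11 and 28 UMIs, 0.64-fold (0.29 to 1.32). Over all members 1 cell held 22 of the Fbln1 UMIs in wild-type SILT, 30 in Csf2-/- LP and 26 in wild-type LP. H2-Eb1 had 97 of its UMIs in 1 wild-type SILT cell, and in Csf2-/- SILT Cxcl1 rested on 2 UMIs. The contractile pair Acta2 and Tagln and the early genes Fos, Junb and Socs3 were each highest in either wild-type SILT or Csf2-/- LP.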

How the results depend on the processing

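The 64 log2 ratios (16 per comparison, of 56 genes chosen as the 8 highest and 8 lowest) gave 823 values over 13 settings. Of these values, 767 kept their direction and moved by less than their counting interval, 47 moved by more and 9 reversed. Leaving out called doublets, none of them a pericyte, and dropping the CPM filter could not change a ratio. The values of those settings are among the 767 by construction and say nothing of stability. Where both libraries had at most 3 UMIs no value was given. The reversed log2 ratios were, for Csf2-/- SILT against Csf2-/- LP, Fxyd2 at -0.015 with at most 1 endothelial UMI and -1.73 with at most 2 smooth muscle UMIs, Rflnb at -0.43 with at most 1 endothelial UMI, -0.12 with at least 4000 UMIs and -0.55 with at most 5% mitochondrial UMIs, and Gas1 at -0.066 with at most 2 smooth muscle UMIs and -0.56 once its top cell in either library was left out. Scn7a (Csf2-/- LP against wild-type LP) was at 0.72 with at most 2 smooth muscle UMIs, and C4b (wild-type SILT against wild-type LP) at -1.40 in typical members; fewer cells enter each of these settings.

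The share of members moved with the limits, whose construction adds or removes barcodes. It was 4.54% (wild-type LP) and 1.92% (wild-type SILT) with at most 1 endothelial UMI, and 20.3%, 20.8%, 11.2% and 12.7% (wild-type LP, Csf2-/- LP, wild-type SILT, Csf2-/- SILT) with no endothelial limit. It was 3.53%, 6.08% and 1.76% (the first 3 libraries) with at most 2 smooth muscle UMIs, 6.48% and 3.07% (both wild-type libraries) with no smooth muscle limit, and 1.56% and 1.27% (both SILT libraries) with at least 4000 UMIs. The share was higher in both LP libraries than in both SILT libraries under every setting run for it.

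The count of genes at least 1.5-fold apart was 1322 (Csf2-/- SILT against wild-type SILT), 491 (Csf2-/- LP against wild-type LP), 1640 (wild-type SILT against wild-type LP) and 1035 (Csf2-/- SILT against Csf2-/- LP). With no CPM filter it was 3495, 2766, 4745 and 3243, since more low genes were counted. With cells thinned to 2000 UMIs it was 724 of 2334 genes, 872 of 3950 and 626 of 2280 in the first, second and last comparison: fewer genes passed the filter in the first and last, and the shares were 31.0%, 22.1% and 27.5% against 33.1%, 12.4% and 25.4%. Leaving out each gene's highest cell took the share of higher calls in Csf2-/- SILT to 37.2% against wild-type SILT and 25.5% against Csf2-/- LP. That setting kept the UMI total of each library. The highest cell is a larger part of 41 pericytes than of 149 (wild-type SILT) or 141 (Csf2-/- LP). Lower ratios in Csf2-/- SILT are thus built into the setting, and no dependence on single cells can be read from these shares. No paired analysis was possible because each group is 1 library. The 41 pericytes of Csf2-/- SILT give the least depth.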
